A study of Mus musculus with 18 samples.

Results

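The heavy-strand mitochondrial tRNAs (mt-tRNAs) whose genes lie nearest the transcription start were followed in mouse hippocampus. They were chosen by position, as the 5 heavy-strand genes mt-Tf, mt-Tv, mt-Tl1, mt-Ti and mt-Tm out of the 22 mt-tRNA rows in a table of 3574 rows. The other 17 rows comprised 9 heavy-strand genes further from the start, called distal here, and 8 light-strand genes. Male mice of a B6SJL background, either wild type (WT) or 5xFAD, were injected in both hippocampi at 6 months of age and studied 4 weeks later. The 5xFAD line carries human APP with the Swedish, London and Florida mutations, driven in neurons by the Thy1 promoter, and is used as a model of Alzheimer's disease. The rAAV2/8 vectors, aimed at neurons of the CA1 and the dentate gyrus, carried GFP under the RSV promoter and an H1-driven hairpin RNA, either a control (shCT) or one against RTP801 (shRTP801), a stress-responsive protein. All 4 groups therefore had the surgery, the vector and GFP. The 5xFAD mice numbered 6 with shRTP801 and 3 with shCT, and the WT mice 4 with shRTP801 and 5 with shCT, with 1 library each. RNA of 60 to 100 nucleotides from whole hippocampi was fragmented and sequenced, so cells that took up no vector contributed reads, the RTP801 mRNA itself was outside the measured size range, and fewer cells of a type and less RNA per cell cannot be told apart.

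Mitochondrial DNA is transcribed from both strands into long precursor RNAs, out of which the tRNAs are cut by RNase P at one end and ELAC2 at the other. Heavy-strand transcription starts just ahead of mt-Tf and runs through the rRNA genes before it reaches mt-Tl1, mt-Ti and mt-Tm. These tRNAs read the codons of the respiratory chain subunits made inside mitochondria, and defects in them, of mt-Tl1 above all, cause human mitochondrial disease with a marked effect on the brain. mt-Tf carries phenylalanine, mt-Tv valine, mt-Tl1 leucine of the UUR codons, mt-Ti isoleucine and mt-Tm methionine, which both starts and extends mitochondrial proteins.

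The tables held 18527898 to 89228299 reads per library, and 3 libraries stood apart in their mt-tRNA content. WT shCT 5, 5xFAD shRTP801 7 and WT shRTP801 4 had 624, 6013 and 79078 mt-tRNA reads, while the other 15 had 1556419 to 13720344. Per 100 reads of mature cytosolic tRNAs, these 3 libraries held 0.00319, 0.0326 and 0.444 mt-tRNA reads, against 10.2 to 106 in the others. The 3 differed in the makeup of the whole library and not in mt-tRNAs alone. Mature tRNAs had 19584408 of 19852409, 18472676 of 18965559 and 17802056 of 18527898 table reads in them. In the others, mature tRNAs had 9850676 to 20292469 reads in tables of 22736718 to 89228299. Precursor tRNA reads were 228426, 318628 and 179658 in the 3, against 47875 to 130675. Each of the 3 belongs to a different group, so the comparisons of shares between groups are given for all 18 mice and for the 15 mice with at least 100000 mt-tRNA reads. Comparisons between genes, read ratios, correlations and reads per 100 mature tRNA reads are given for the 15 mice unless stated otherwise. Of the small RNAs typical of brain, Snord116 rows had reads in 15 of 18 libraries, with a median of 764, and tRNA-Arg-TCT-4 had 61 to 6619 reads in every library, while Mir124 rows had a median of 5 and no Snord115 row was found by name. Mir9 had a median of 0 and reads in 4 of 18 libraries. Of markers of other tissues, the endothelial Mir126 had a median of 1 and reads in 12 of 18. No row was found by name for Mir122, Mir133, Mir1a or Mir142.

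The 5 tRNAs came from one stretch of the genome but differed in length-scaled reads by nearly 2 orders of magnitude. Genes are compared by length-scaled shares, in which reads per base of each tRNA are expressed as a percentage of that sum over the 22 mt-tRNAs. These shares describe reads. Whether different tRNAs yield reads equally well was not tested, so the shares are not measures of relative abundance. Over the 15 mice, the mean length-scaled share of mt-Tv was 19.3% ± 5.17 (SD), the second highest of the 22 after the distal mt-Th, which carries histidine and held 55.2% ± 8.16. Then followed mt-Tl1 at 2.19% ± 0.925, mt-Tm at 1.36% ± 0.325, mt-Ti at 0.483% ± 0.135 and mt-Tf at 0.254% ± 0.111. The highest mean was 75.8 times the lowest, and 3 of the 5 were above the median of the 22, which was 0.97%. Over all 18 mice the means of mt-Tv, mt-Tm, mt-Ti and mt-Tf were 18.6%, 1.39%, 0.417% and 0.218%, while that of mt-Tl1 was 4.79% ± 6.78.

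The order in the 15 mice had 2 clear steps and 2 weak ones. In the length-scaled shares, mt-Tv exceeded mt-Tl1 in 15 of 15 mice and mt-Tm exceeded mt-Ti in 15 of 15, with no overlap of their ranges. mt-Tl1 exceeded mt-Tm in 13 of 15 mice and mt-Ti exceeded mt-Tf in 13 of 15, and for both of these neighbours the ranges overlapped. Over all 18 mice the ranges of every pair of neighbours overlapped. mt-Tv then exceeded mt-Tl1 in 16 mice, with a ratio of means of 3.89 in place of 8.81, mt-Tl1 exceeded mt-Tm in 16, mt-Tm exceeded mt-Ti in 18 and mt-Ti exceeded mt-Tf in 15. The length-scaled share did not follow the order of the genes along the mitochondrial DNA, since mt-Tf, the first gene after the start, was the lowest of the 5. The light-strand mt-Tq, which carries glutamine and whose gene lies between mt-Ti and mt-Tm, had a length-scaled share of 0.148% ± 0.0534, and the ratio of mt-Ti to mt-Tq reads was 2.05 to 6.36. The genes of mt-Ti and mt-Tq overlap by 3 bases on opposite strands, and whether strand was used in counting is not given in the sources used here.

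**Figure D1:**
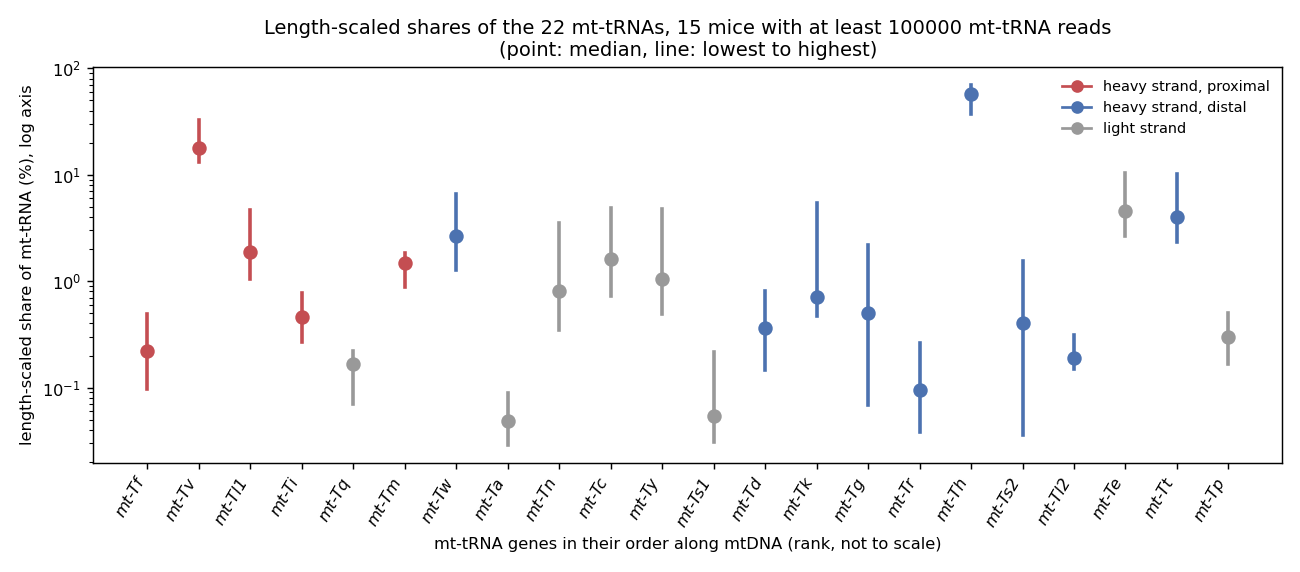
Length-scaled share of each of the 22 mt-tRNAs (%, log axis) against its rank in gene order, over the 15 mice with at least 100000 mt-tRNA reads. Points are medians and lines run from the lowest to the highest mouse. The proximal heavy-strand tRNAs, in red, run from mt-Tf (median 0.22%) to mt-Tv (median 17.8%), and mt-Th of the distal set is the highest (median 57.3%).

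Within the set, reads were held mostly by mt-Tv. Over the 15 mice it made up a median of 82.1% of the reads on the 5 tRNAs (65.2% to 89.1%), and mt-Tl1 8.94% (4.96% to 25.4%). The read ratio of mt-Tv to mt-Tf, whose genes flank mt-Rnr1, had a median of 85.0 and ran from 45.2 to 138. The ratio of mt-Tv to mt-Tl1, whose genes flank mt-Rnr2, had a median of 9.19 and ran from 2.57 to 17.97. The ratio of mt-Tm to mt-Ti, which are separated only by mt-Tq, ran from 1.64 to 4.97. Pieces of the rRNAs themselves were rare in the same 15 libraries, at 0.0235 to 0.267 reads of mt-Rnr1 and 0.0154 to 0.235 reads of mt-Rnr2 per 100 mt-tRNA reads.

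From here on, a share is the percentage of all mt-tRNA reads of a mouse. mt-Tf, the phenylalanine tRNA, had shares of 0.164%, 0.164%, 0.214% and 0.272% in 4 WT shCT mice and no read among 624 in WT shCT 5, which allows a share of up to 0.481%. The WT shRTP801 mice had 0.128%, 0.275% and 0.429%, and 0.0632% in mouse 4. The 5xFAD shCT mice had 0.222%, 0.308% and 0.335%, while the 5xFAD shRTP801 mice ran from 0.0499% in mouse 7, with a median of 0.191%, to 0.493%. All 4 groups overlapped. The value of 5xFAD shRTP801 7 rested on 3 reads (95% Wilson interval 0.017% to 0.147%), and that of WT shRTP801 4 on 50 (interval 0.048% to 0.0833%).

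mt-Tv, the valine tRNA, had shares of 11.7%, 15.1%, 18.2%, 20.6% and 22.1% in WT shCT mice and of 15.98%, 19.2%, 20.2% and 32.9% in WT shRTP801 mice. They were 14.6%, 15.4% and 27.3% in 5xFAD shCT mice and 13.3% to 22.3%, with a median of 17.5%, in 5xFAD shRTP801 mice. The 3 mt-tRNA-poor libraries, at 11.7%, 15.6% and 19.2%, lay within or just under the range of the rest, 13.3% to 32.9%. The highest values, 32.9% and 27.3%, came from WT shRTP801 21 and 5xFAD shCT 18, which belong to different groups.

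mt-Tl1, the leucine tRNA, set the mt-tRNA-poor libraries apart most clearly. Its shares were 1.44%, 2.33%, 2.40% and 3.64% in WT shCT mice and 23.2% in WT shCT 5 (145 reads, 95% Wilson interval 20.1% to 26.7%). They were 1.83%, 2.06% and 3.05% in WT shRTP801 mice and 8.50% in mouse 4, and 1.60%, 2.06% and 2.77% in 5xFAD shCT mice. The 5xFAD shRTP801 mice had 1.17% to 5.19% apart from mouse 7, at 26.4% (1585 reads, interval 25.3% to 27.5%). Thus 8.50% to 26.4% in the 3 libraries lay above every other library, and without them the groups overlapped.

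mt-Ti, the isoleucine tRNA, had low measured shares in the same libraries. Its shares were 0.374%, 0.482%, 0.546% and 0.654% in WT shCT mice with none in WT shCT 5, and 0.398%, 0.402% and 0.419% in WT shRTP801 mice with 0.137% in mouse 4. They were 0.274%, 0.399% and 0.528% in 5xFAD shCT mice, and from 0.389% to 0.797% in 5xFAD shRTP801 mice apart from mouse 7 at 0.116%, which rested on 7 reads (95% Wilson interval 0.0564% to 0.24%). The methionine tRNA mt-Tm had shares of 0.481% to 1.86% in WT mice with shCT and 1.51% to 1.81% with shRTP801, and 0.961% to 1.80% in 5xFAD mice with shCT and 0.901% to 2.49% with shRTP801, where the lowest and the highest of all 18 mice were the mt-tRNA-poor WT shCT 5, with 3 reads (95% Wilson interval 0.164% to 1.40%), and 5xFAD shRTP801 7.

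**Figure D2:**
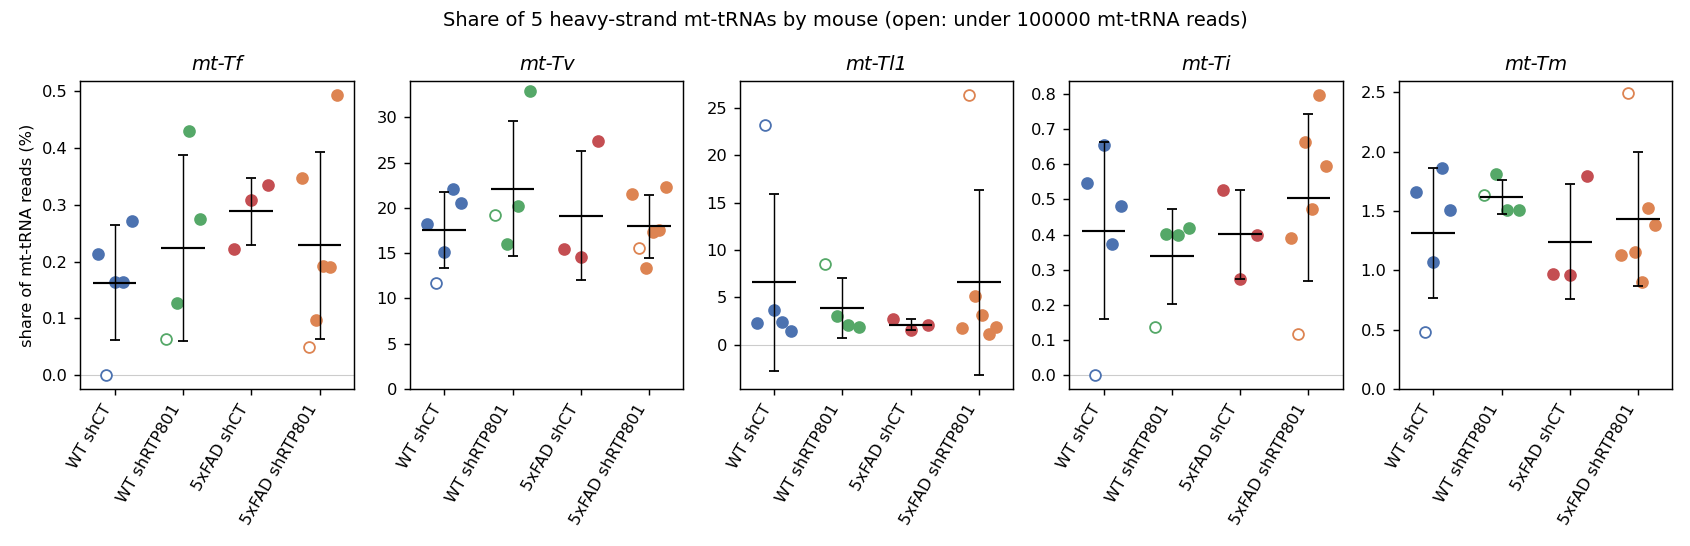
Share of mt-tRNA reads (%, linear axes that differ between panels) of the 5 tRNAs in each mouse, by group. Open circles are the 3 libraries with under 100000 mt-tRNA reads, and bars give the mean and SD of all mice of a group (n = 5, 4, 3 and 6). The open circles lie above all others for mt-Tl1 (8.50% to 26.4%) and below all others for mt-Tf and mt-Ti, where WT shCT 5 had no read and could hold up to 0.481%, and the filled circles of the 4 groups overlap.

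By measured share, 3 of the 22 mt-tRNAs were above and 4 below every other library in these 3 libraries. mt-Tl1 was one of those above, with the light-strand mt-Ts1 and mt-Tp, and mt-Tf and mt-Ti were among those below, with the distal mt-Tw and mt-Td. WT shCT 5 cannot be placed below the others for these 4. It had no read of mt-Tf, mt-Ti and mt-Td and 4 of mt-Tw, and the up to 0.481% that no read allows lies within the range of the 15 other libraries for mt-Tf (0.0966% to 0.493%) and mt-Ti (0.274% to 0.797%). Counting error also left the 3 reads of mt-Tf in 5xFAD shRTP801 7 within that range. The summed share of the 5 was 29.6%, 35.4% and 44.6% in WT shRTP801 4, WT shCT 5 and 5xFAD shRTP801 7, and 17.8% to 37.0% in the other 15 mice. How a low mt-tRNA content and the makeup of the mt-tRNA reads came to move together was not tested. Over the 15 mice, the log2 share was also set against the log2 number of mt-tRNA reads per 100 mature tRNA reads. mt-Tl1 had a Pearson r of -0.62 (permutation p = 0.0132, adjusted over the 5 tRNAs 0.0331; Spearman rho -0.62, permutation p = 0.0161) and mt-Tf an r of 0.65 (permutation p = 0.00909, adjusted 0.0331; rho 0.60, permutation p = 0.0198). Both measures contain the mt-tRNA reads. The permutations pooled mice of the 4 groups, so these p do not separate a relation between mice from a difference between groups. The mice farthest from the median were 5xFAD shRTP801 8 and 5xFAD shRTP801 12. Without them, r was -0.36 for mt-Tl1 (permutation p = 0.226) and 0.52 for mt-Tf (permutation p = 0.0662). Spearman rho was then -0.43 and 0.50. Neither relation kept a permutation p under 0.05 in these 13 mice. The r of mt-Tv, mt-Ti and mt-Tm was 0.45, -0.47 and 0.31, with adjusted permutation p of 0.116, 0.116 and 0.262. These calls depended on the denominator. With mt-Th left out of the mt-tRNA reads, a setting chosen after seeing the data, r was 0.69 for mt-Tf and 0.71 for mt-Tv (adjusted permutation p = 0.0099 for both), and that of mt-Tl1 was -0.46 (adjusted permutation p = 0.106).

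**Figure D3:**
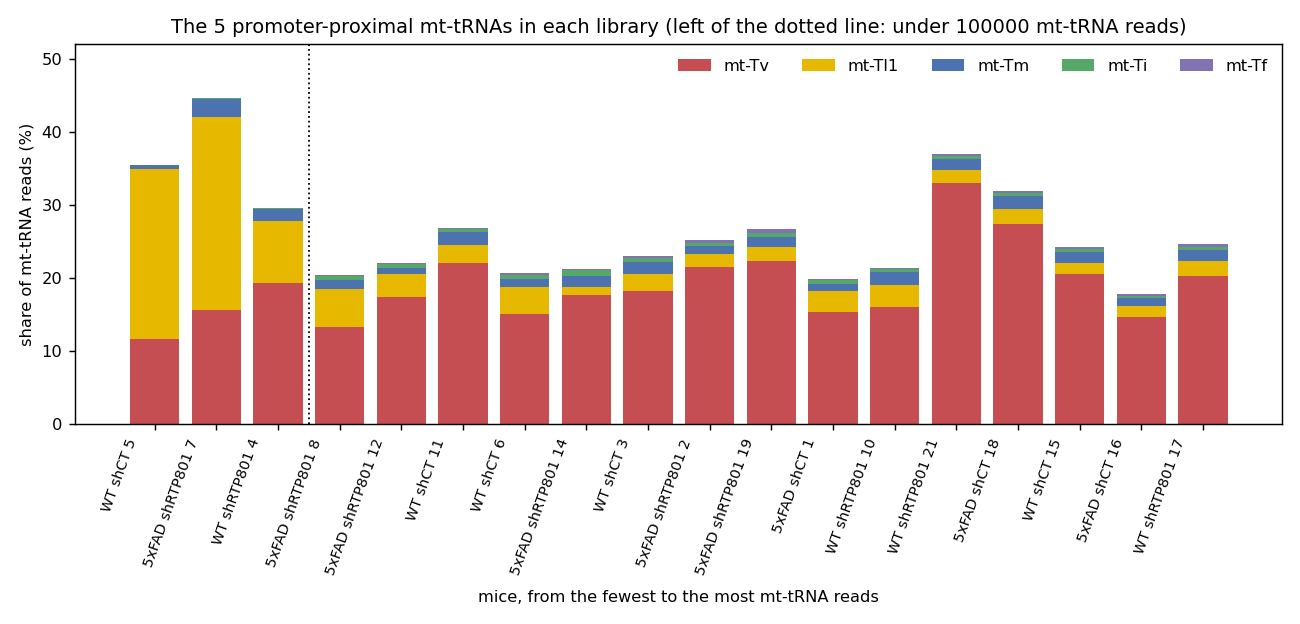
Stacked shares of mt-tRNA reads (%) of the 5 tRNAs in each of the 18 libraries, ordered by their number of mt-tRNA reads. Left of the dotted line are the 3 libraries with 624, 6013 and 79078 mt-tRNA reads, in which mt-Tl1 (yellow) takes 8.50% to 26.4%; in the other 15 it takes 1.17% to 5.19% and mt-Tv (red) 13.3% to 32.9%.

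None of the 5 shares differed between groups past the threshold. limma on the log2 share called 0 of the 22 mt-tRNAs (0%) at an adjusted p under 0.05 in each of the 4 comparisons, and in each of them 1 of the 22 (4.55%), never one of the 5, had an unadjusted p under 0.05. edgeR's quasi-likelihood test on the whole table called 0 of 2102 rows (0%) in every comparison. Exact two-sided permutation tests of the percentages gave no adjusted p under 0.05 for any of the 22, but they had little room to do so. In these exact tests the smallest p possible was 0.0179, 0.0119, 0.00794 and 0.00476 in the order of the comparisons that follow. Adjusted over the 22, such a p in 1 mt-tRNA alone stays over 0.05. The adjusted exact tests therefore could not call a single mt-tRNA, and their outcome adds nothing to that of limma.

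Between 5xFAD shCT and WT shCT mice, which addresses the 5xFAD genotype under the control vector, mt-Tf had a log2 change of 2.04 (SE 1.39, limma adjusted p = 0.777) and mt-Ti of 1.42 (SE 1.54, adjusted p = 0.777). Both values came from WT shCT 5, in which the 2 tRNAs had no read, and they depend on the 0.001% added before the log. In the 15 mice the changes were 0.51 (SE 0.511) for mt-Tf and -0.38 (SE 0.322) for mt-Ti. mt-Tl1 changed by -0.82 (SE 0.945, limma adjusted p = 0.777) over all mice and by -0.16 (SE 0.466) in the 15. The log2 change of mt-Tv was 0.10 (SE 0.348) over all mice and -0.04 (SE 0.33) in the 15, and that of mt-Tm -0.005 (SE 0.442) and -0.33 (SE 0.311).

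Between 5xFAD shRTP801 and 5xFAD shCT mice, which addresses the hairpin against RTP801 in the disease model, the log2 change of mt-Tl1 was 0.72 (SE 0.915, limma adjusted p = 0.851) over all mice and 0.14 (SE 0.446) in the 15. How far RTP801 fell in these mice cannot be read from these libraries. mt-Ti, at 0.17 (SE 1.49) over all mice, had a change of 0.55 in the 15 (SE 0.307, limma adjusted p = 0.391), with a mean share of 0.583% ± 0.16 (SD, n = 5) against 0.4% ± 0.127 (SD, n = 3) and an exact permutation p of 0.161. mt-Tv differed by -0.05 (95% interval -0.77 to 0.66) over all mice. In this comparison the groups did not overlap in all 18 mice for 1 of the 22 mt-tRNAs (4.55%), which was none of the 5.

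Between WT shRTP801 and WT shCT mice, mt-Tf changed by 1.35 (SE 1.28, limma adjusted p = 0.783) and mt-Ti by 1.09 (SE 1.41, adjusted p = 0.783) over all mice, which again included the zeros of WT shCT 5, and by 0.31 (SE 0.511) and -0.31 (SE 0.322) in the 15. mt-Tv was the member with the narrowest interval here, at 0.32 (95% interval -0.36 to 0.99). Between 5xFAD shRTP801 and WT shRTP801 mice the log2 changes over all mice ran from -0.27 for mt-Tv to 0.49 for mt-Ti. In the 15 mice mt-Tm had a mean share of 1.22% ± 0.241 (SD, n = 5) against 1.61% ± 0.176 (SD, n = 3), a log2 change of -0.42 (SE 0.297, limma adjusted p = 0.435) and an exact permutation p of 0.0714. No comparison had non-overlapping groups for any of the 5 shares. The 95% intervals, drawn in the plot of log2 changes, reached past 2-fold over every mouse in 4 of 4 comparisons for mt-Tf, mt-Tl1 and mt-Ti and in 3 for mt-Tm. In the 15 mice they still did so in 4 comparisons for mt-Tf, 3 for mt-Tl1, 3 for mt-Ti and 1 for mt-Tm, so a 2-fold difference lay within those intervals. Those of mt-Tv stayed within 2-fold in all 4 comparisons, over every mouse and in the 15.

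**Figure D4:**
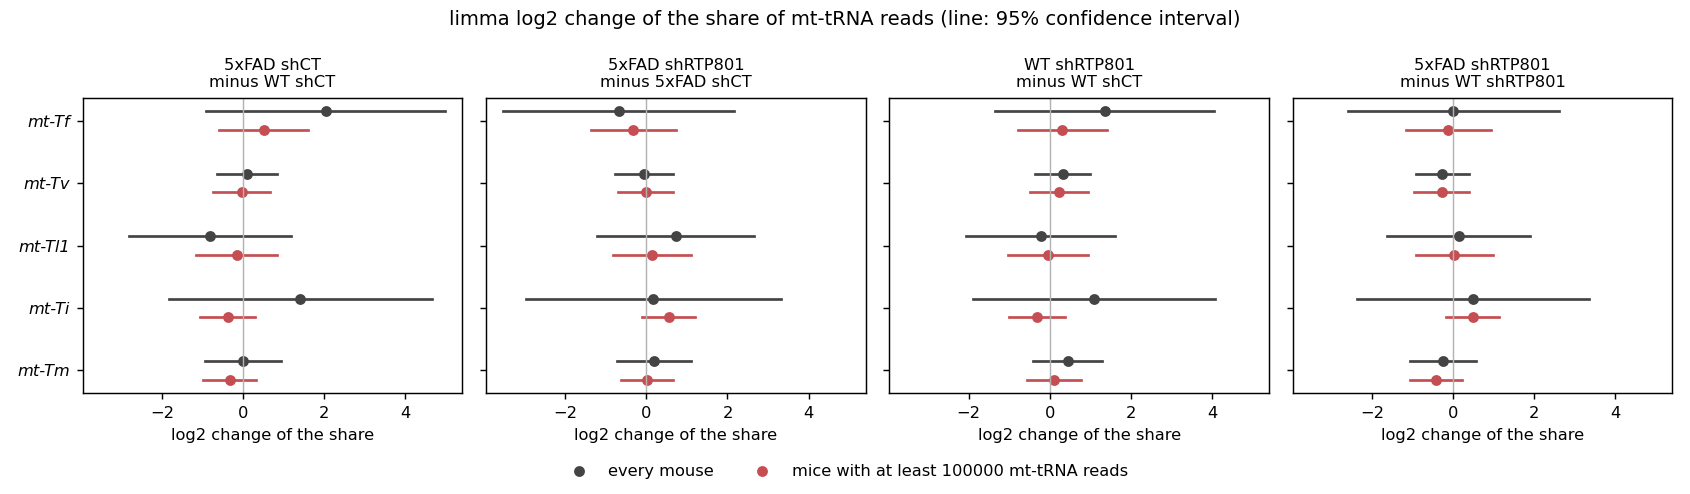
limma log2 change of the share of mt-tRNA reads of the 5 tRNAs in the 4 comparisons, with 95% confidence intervals, over every mouse (grey) and over the 15 mice with at least 100000 mt-tRNA reads (red). Every interval includes 0, and the intervals of mt-Tf, mt-Tl1 and mt-Ti are shorter in the 15 mice.

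The log2 changes of the 5 shares did not have one sign. Over all mice and in the order above, 3, 3, 4 and 3 of the 5 had a log2 change over 0, with medians of 0.10, 0.17, 0.44 and 0.01, beside medians of -0.07, 0.29, -0.12 and 0.30 over all 22 mt-tRNAs. The 9 distal heavy-strand tRNAs had medians of -0.03, 0.28, -0.02 and 0.33, and the 8 light-strand tRNAs of -0.59, 0.60, -0.49 and 0.59. Over the 15 mice, 1, 3, 3 and 2 of the 5 were over 0, with medians of -0.16, 0.01, 0.10 and -0.12, beside -0.15, 0.42, -0.23 and 0.47 over the 22. As a percentage of mt-tRNA plus mature tRNA reads, which keeps the total of mt-tRNAs, 5, 0, 5 and 0 of the 5 were over 0, both over all mice and in the 15. Of the 22, 22, 0, 21 and 5 were over 0 on that scale over all mice, with medians of 2.03, -1.78, 0.65 and -0.44, and none of the 5 passed in any comparison. The summed share of the 5 was 26.0% ± 5.72 (SD, n = 5) in WT mice with shCT and 28.1% ± 6.78 (n = 4) with shRTP801, and 23.2% ± 7.63 (n = 3) in 5xFAD mice with shCT and 26.7% ± 9.1 (n = 6) with shRTP801. The means of the 15 mice were 23.7%, 27.7%, 23.2% and 23.1% in the same order. The interaction of genotype and treatment had an adjusted p under 0.05 for 0 of the 22 shares (0%) over all mice, with 2 of 22 (9.09%) at an unadjusted p under 0.05, none of them among the 5. In the 15 mice 1 of 22 (4.55%) passed, the distal mt-Tr, which carries arginine, with a log2 interaction of 2.34 (limma adjusted p = 0.0425). That call depended on the scale. In the same mice it was 0.15 as a percentage of mt-tRNA plus mature tRNA reads (limma adjusted p = 0.858). With mt-Th left out it was 2.08 (limma adjusted p = 0.055).

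The reads were also set against those of mature cytosolic tRNAs. In the 15 mice, mt-Tl1 had 0.381, 0.713, 0.726 and 1.53 reads per 100 mature tRNA reads in WT shCT and 1.82, 1.97 and 2.26 in WT shRTP801 mice. It had 1.41, 1.49 and 1.92 in 5xFAD shCT mice and 0.323, 0.375, 0.550, 0.874 and 0.988 in 5xFAD shRTP801 mice. Thus in the 15 mice the level was higher with shRTP801 in WT mice and lower with shRTP801 in 5xFAD mice, without overlap in either genotype. Such a lack of overlap held for 3 of the 22 mt-tRNAs (13.6%) in WT and 5 of 22 (22.7%) in 5xFAD mice and for no other of the 5. Between 5xFAD shRTP801 and WT shRTP801 mice of the 15, 7 of 22 (31.8%) did not overlap, mt-Tl1 and mt-Tm among them. The 15 mice were kept by their mt-tRNA reads, which are part of this level. WT shRTP801 4, left out here, had 0.444 reads of all mt-tRNAs together per 100 mature tRNA reads. That is under the highest mt-Tl1 value of WT shCT (1.53) and of 5xFAD shRTP801 mice (0.988). With this mouse included, mt-Tl1 of WT shRTP801 mice therefore overlaps that of both groups. All mt-tRNA reads together, per 100 mature tRNA reads, were 15.8, 19.9, 30.6 and 106 in WT mice with shCT (mean 43.2) and 74.0, 95.7 and 99.6 with shRTP801 (mean 89.8). The highest, WT shCT 15, lay above every WT shRTP801 mouse, and without it the WT shCT mean was 22.1. In 5xFAD mice they were 50.8, 93.3 and 93.4 with shCT (mean 79.2) and 10.2 to 53.2 with shRTP801 (mean 30.9), and the groups overlapped. Neither difference of mt-Tl1 passed on the percentage of mt-tRNA plus mature tRNA reads, with log2 changes of 0.99 in WT (SE 0.447, limma adjusted p = 0.312) and -1.04 in 5xFAD mice (SE 0.428, adjusted p = 0.258), where 0 of the 22 (0%) passed.

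On this percentage limma in the 15 mice gave log2 interactions of genotype and treatment of -2.03 for mt-Tl1 (SE 0.619, adjusted p = 0.0473), -2.46 for mt-Tv (SE 0.941, adjusted p = 0.0701) and -2.29 for mt-Tm (SE 0.895, adjusted p = 0.0701). mt-Tf stood at -2.78 (SE 1.19, limma adjusted p = 0.0776) and mt-Ti at -1.34 (SE 0.815, adjusted p = 0.199). The median over all 22 was -1.60, and 2 of the 22 (9.09%) passed, mt-Tl1 and the light-strand mt-Tp, with 10 of 22 (45.5%) at an unadjusted p under 0.05. The call of mt-Tl1 was weak. It was lost with every mouse included (log2 -3.40, SE 2.71, limma adjusted p = 0.619) and when any one of 12 of the 15 mice was left out, with adjusted p from 0.0163 to 0.134 over the 15 fits. It held only without WT shCT 15, 5xFAD shRTP801 8 or 5xFAD shRTP801 19. This test was chosen after the data had been seen. No single comparison on this scale had an adjusted p under 0.05 for any of the 5, and the lowest was 0.0866, for mt-Tl1 between 5xFAD shRTP801 and WT shRTP801 mice (log2 change -1.28, SE 0.428, limma).

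The mt-tRNA whose share varied most alike was light-strand for mt-Tf, mt-Tv and mt-Tl1, distal for mt-Ti and one of the 5 for mt-Tm. Of the 22 mt-tRNAs, 8 are light-strand, 9 distal and 5 proximal, so most possible partners lie outside the 5. Over the 15 mice, the highest Pearson correlations of log2 shares were 0.77 for mt-Tf and 0.81 for mt-Tv, both with the light-strand mt-Te. They were 0.84 for mt-Tl1 with the light-strand mt-Ts1 and 0.80 for mt-Ti with the distal mt-Td. mt-Tm had the lowest best match, at 0.52 with mt-Tv. The next in order were mt-Tv for mt-Tf at 0.56, mt-Ta for mt-Tv at 0.67, mt-Ty for mt-Tl1 at 0.80, mt-Tw for mt-Ti at 0.74 and mt-Te for mt-Tm at 0.45. These values describe mice whose shares have one common denominator in each library, and no test was made of them.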

How the data were processed

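Small RNA of both hippocampi of 18 mice was isolated, cut to 60 to 100 nucleotides on a gel, hydrolysed and sequenced (Hydro-tRNA-seq). The authors counted reads with tRAX, whose version is not given in the sources used here, against mm39, per the submitters' processing notes. The deposited values are a normalized signal: read counts per row which the authors divided by 1 size factor per library. Dividing each column by its smallest step gave whole reads for 100% of values (tolerance 1e-06). Shares, mt-tRNA depths and Wilson 95% intervals were computed from these reads; intervals and the floor of 3 reads cover counting error only, since no molecular identifiers were used. Mature tRNA reads were summed over 213 species. Gene order, gene length and the overlap of mt-Ti with mt-Tq came from RefSeq (GRCm38.p6), in which 22 of 22 mt-tRNA symbols were matched. No coordinates of it are printed. Strand came from the lists of proximal, distal and light-strand genes and was not checked against RefSeq.

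Every mouse gave 1 library, and groups were taken from the labels. The main test was limma 3.58.1 on log2(share + 0.001%), for rows with a mean of at least 0.001%, in 1 fit of 4 group means, adjusted by Benjamini-Hochberg over 22 rows. Exact permutation tests compared percentages, and correlations used 100000 permutations. Alternatives changed the pseudocount, filter, denominator, mice, weights and tool (DESeq2 1.42.0 and edgeR 4.0.16, run on the recovered reads). limma and edgeR were both run on simulated counts with planted changes and a set spread, not that of these mice. This checks the code and not how well either finds changes here. The text names the 5 tRNAs, their best-correlated pair of mt-tRNAs each, mt-Tq, the rRNA genes and any mt-tRNA called; mt-Th, mt-Ts1, mt-Tp, mt-Tw and mt-Td were named after their values were seen. The 5 tRNAs, the lists and the tests were chosen with earlier results of these data known. One element of the 5xFAD genotype is not reported here.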

Additional observations from a re-analysis of the deposited data

Results flagged for a closer look

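In 18 sets of shares from groups of 4 to 6 mice, a single mouse lay far from the rest of its group 4 times. The rule used gives about 1 in 20 sets for independent, normal values. These sets are not independent, since shares have one denominator and the summed share contains mt-Tl1, so the 4 cannot be set against that rate. The share of mt-Tl1 was 23.2% in WT shCT 5, against 1.44% to 3.64% in the other mice of that group, and 26.4% in 5xFAD shRTP801 7, against 1.17% to 5.19%. The share of mt-Ti was 0.137% in WT shRTP801 4, against 0.398% to 0.419%. The summed share of the 5 tRNAs was 44.6% in 5xFAD shRTP801 7, against 20.4% to 26.6%. All 4 values belong to the 3 libraries with under 100000 mt-tRNA reads.

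As a percentage of mt-tRNA plus mature tRNA reads in the 15 other mice, mt-Tl1 had a log2 interaction of genotype and treatment of -2.03 (limma adjusted p = 0.0473). This call was lost when any one of 12 of these mice was left out and when every mouse was used. It was not particular to mt-Tl1, since mt-Tp also passed and 10 of the 22 mt-tRNAs (45.5%) had an unadjusted limma p under 0.05. The test was chosen after the data had been seen, in mice kept by their mt-tRNA reads.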

How the results depend on the processing

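No paired analysis was made, since the labels give each mouse its own number and name no pairs, litters or batches. None of the 5 tRNAs passed the threshold in any of the 4 comparisons under any setting, so the changes of sign listed here are of values that did not pass. Settings with mt-Th left out, the level scale in the 15 mice, the interaction on that scale and the relations to mt-tRNA content were chosen after seeing the data. The cause of a changed value was not tested unless named. The comparisons are called the 5xFAD effect under shCT, the shRTP801 effect in 5xFAD, the shRTP801 effect in WT and the 5xFAD effect under shRTP801, and values are log2. Another scale changed the most signs. For these the values follow in the order of deposited values, percentage of mt-tRNA plus mature tRNA reads, the same percentage in the 15 mice, edgeR on the whole table, and edgeR without a filter. The 5xFAD effect under shCT became 2.33, 2.40, 0.75, 0.51 and 0.37 for mt-Tl1 and 3.10, 2.25, 0.57, 0.29 and 0.16 for mt-Tm. The shRTP801 effect in 5xFAD became -1.94, -1.95, -1.04, -1.098 and -0.89 for mt-Tl1, -2.48, -1.74, -0.62, -0.54 and -0.36 for mt-Ti, and -2.48, -2.32, -1.16, -1.109 and -0.92 for mt-Tm. The shRTP801 effect in WT became 1.53, 1.45, 0.99, 0.39 and 0.24 for mt-Tl1, and -0.11 for mt-Ti with edgeR without a filter. The 5xFAD effect under shRTP801 became -1.24, -0.67, -1.39, -0.74 and -0.53 for mt-Tf, -1.15, -1.005, -1.28, -0.98 and -0.77 for mt-Tl1, and -0.78, -0.22, -0.82, -0.32 and -0.12 for mt-Ti. These scales keep the total of mt-tRNAs, which a share removes by construction. The log2 ratio of the summed share, -0.17, 0.20, 0.11 and -0.08 in the same order of comparisons, became 0.88, -1.33, 0.80 and -1.25 with deposited values and 1.03, -1.20, 0.99 and -1.16 as a percentage of mt-tRNA plus mature tRNA reads. Centring on the median mt-tRNA gave 0.63 for mt-Tm in the 5xFAD effect under shCT, -0.0739, -0.63 and -0.61 for mt-Tl1, mt-Ti and mt-Tm in the shRTP801 effect in 5xFAD, 0.21 for mt-Tl1 in the shRTP801 effect in WT, and -0.59, -0.46 and -0.11 for mt-Tf, mt-Tl1 and mt-Ti in the 5xFAD effect under shRTP801. Leaving out mt-Th gave, likewise in turn, 0.23 for mt-Tm, -0.20 and -0.18 for mt-Ti and mt-Tm, and -0.20 and -0.0741 for mt-Tf and mt-Tl1 under shRTP801. In the 15 mice without mt-Th the values were -0.24 for mt-Ti, -0.14 and -0.27 for mt-Tl1 and mt-Tm, -0.31 for mt-Ti, and -0.25 and -0.11 for mt-Tf and mt-Tl1 in the 4 comparisons. DESeq2 gave 0.0716 for mt-Tm, -0.11 and -0.30 for mt-Ti and mt-Tm, -0.18 for mt-Ti and -0.35 for mt-Tf in the 4 comparisons. edgeR on the 22 rows gave -0.18 and -0.41 for mt-Ti in both comparisons with WT shCT. Array weights in limma gave -0.0771 and -0.22 for mt-Tv and mt-Ti, 0.0533 for mt-Tv, 0.15 and -0.30 for mt-Tl1 and mt-Ti, and -0.23 for mt-Tl1. The 15 mice gave -0.0355 and -0.38 for mt-Tv and mt-Ti under shCT, -0.31 for mt-Ti in WT and -0.12 for mt-Tf under shRTP801, and ratios of mean percentages of -0.0282 for mt-Tm in 5xFAD and -0.0709 for mt-Tf under shRTP801. A pseudocount of 0.1% gave -0.013 for mt-Ti in WT, while the exact tests gave 1.42 under shCT and 1.09 in WT for mt-Ti with log2 percentages, as WT shCT 5 had none. Leaving out each mouse in turn, the 5xFAD effect under shCT ran from -0.19 to 0.26 for mt-Tv, from -0.38 to 1.96 for mt-Ti and from -0.33 to 0.16 for mt-Tm. The shRTP801 effect in 5xFAD ran from -0.22 to 0.24 for mt-Tv and from -0.0783 to 0.55 for mt-Ti. The shRTP801 effect in WT ran from -0.18 to 1.85 for mt-Tf, from -0.71 to 0.43 for mt-Tl1 and from -0.70 to 1.64 for mt-Ti. The 5xFAD effect under shRTP801 ran from -0.48 to 0.43 for mt-Tf and from -0.45 to 0.61 for mt-Tl1. The number of mt-tRNAs called for the interaction ran from 0 to 1: without WT shCT 15, with array weights and in the 15 mice, 1 was called, each time the distal mt-Tr (log2 2.77, 2.37 and 2.34, limma adjusted p = 0.0223, 0.0148 and 0.0425). The interaction of mt-Tr was -1.935 with deposited values over all mice (limma adjusted p = 0.604). It was 0.15 as a percentage of mt-tRNA plus mature tRNA reads in the 15 mice (limma adjusted p = 0.858). In that percentage scale of the 15 mice, leaving out each mouse moved the interaction of mt-Tl1 from -2.19 to -1.80, of mt-Tf from -3.32 to -2.25, of mt-Tv from -2.89 to -2.08 and of mt-Tm from -2.69 to -1.91. mt-Tf, mt-Tv and mt-Tm each passed in 2 of the 15 fits, and deposited values of the same mice gave -2.05 for mt-Tl1 (limma adjusted p = 0.0559). For the relations to mt-tRNA content, r of mt-Tm was -0.0111 without the farthest mice, and with mt-Th left out r was 0.71 for mt-Tv (adjusted permutation p = 0.0099) and -0.46 for mt-Tl1 (adjusted permutation p = 0.106). With 624 reads in WT shCT 5, 3 reads are 0.481%, above the median share of mt-Tf (0.222%) and of mt-Ti (0.473%) in the 15 other mice, so depth limits both there.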
